A study of Mus musculus with 2 samples.

Results

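The cells described here are those with more than 5000 detected genes, which the study's own quality limits of 200 to 5000 genes remove before any clustering. They were taken from the unfiltered counts of both libraries as every barcode with over 5000 genes and at most 20% of its unique molecular identifiers (UMIs, 1 per captured RNA molecule) from mitochondrially encoded genes. There were 120 of 5795 cells, 65 of 2804 in the wild-type library and 55 of 2991 in the knockout library, which is 2.32% (exact binomial 95% interval 1.79 to 2.95) and 1.84% (1.39 to 2.39). None was lost to the mitochondrial limit. These few cells held 10.7% of all wild-type UMIs and 9.25% of all knockout UMIs.

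The wild-type library came from NOD.Foxp3-EGFP mice, nonobese diabetic mice whose Foxp3-expressing cells are labelled by an EGFP reporter, and the knockout library from NOD.Tnfrsf9-/-.Foxp3-EGFP mice, which lack CD137, the costimulatory receptor that Tnfrsf9 encodes, in all cells. Both carried the reporter, so it does not differ between them. Cells infiltrating the islets of 6 females of 9 to 10 weeks were pooled per genotype. CD45.1+ cells without CD11b were sorted as CD8+CD4- (CD8 T cells) and as CD4+CD8-GFP+ (Tregs) and put together into 1 library, so the ratio of CD8 T cells to Tregs in a library says nothing of their ratio in the islets. About 7000 cells per strain went into the preparation, with Chromium 3′ version 2 reagents. With 1 library per genotype there is no test: levels are given as counts per 1e6 UMIs (CPM) of the UMIs summed over a set of cells, with an exact Poisson 95% interval in square brackets, shares carry exact binomial intervals, and both cover counting error only. Which exons the Tnfrsf9 allele lacks is not given in the sources used here, so 3′ tags of that gene may lie outside the deletion and its counts are no check of the label.

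A T cell that has met antigen grows before and while it divides. It makes more ribosomes in the nucleolus, imports amino acids, makes nucleotides and polyamines, and folds a larger output of protein, and its RNA content rises with its size through the cell cycle. A high gene count is therefore a known property of dividing blasts, and it is also a known property of doublets, droplets that caught 2 cells and carry the RNA of both. For these reasons the cells over 5000 genes were set beside the proliferating cells that the study's limits keep, defined as cells with 200 to 5000 genes, at most 20% mitochondrial UMIs and at least 3 UMIs over Mki67, Top2a, Birc5, Ube2c and Cdk1, genes of mitosis and the late cell cycle. There were 371 wild-type and 302 knockout cells of that kind.

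The UMI counts follow from the choice of cells by gene number and are given only as a description. A cell over 5000 genes held a median of 32047 UMIs in the wild-type library, with a range of 22465 to 44830, and a median of 30875 in the knockout library, with a range of 23547 to 60793. That was 2.32 and 2.37 times the median of the proliferating cells (13837 and 13042), and 6.40 and 6.30 times that of all kept cells. The median number of genes was 5335 and 5399 and the highest 6289 and 7105. The limit fell inside a continuous range: cells up to 200 genes below it (16 in the wild-type library, 10 in the other) held medians of 25493 and 24447 UMIs, and the 23 and 11 members up to 200 genes above it held 29432 and 27946. Thinned to 10000 UMIs, members carried medians of 3005 and 3076 genes, against 3022 and 3079 in the proliferating cells, so at equal depth they did not show more genes. The median mitochondrial share was 1.74% and 1.82%, with a highest value of 2.97% and 3.25%, against 1.79% and 1.73% in the proliferating cells. The libraries held 19904506 and 19639995 UMIs, and of the 16 barcodes that occur in both, 1 was a member in one library and 0 were members in both.

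**Figure D1:**
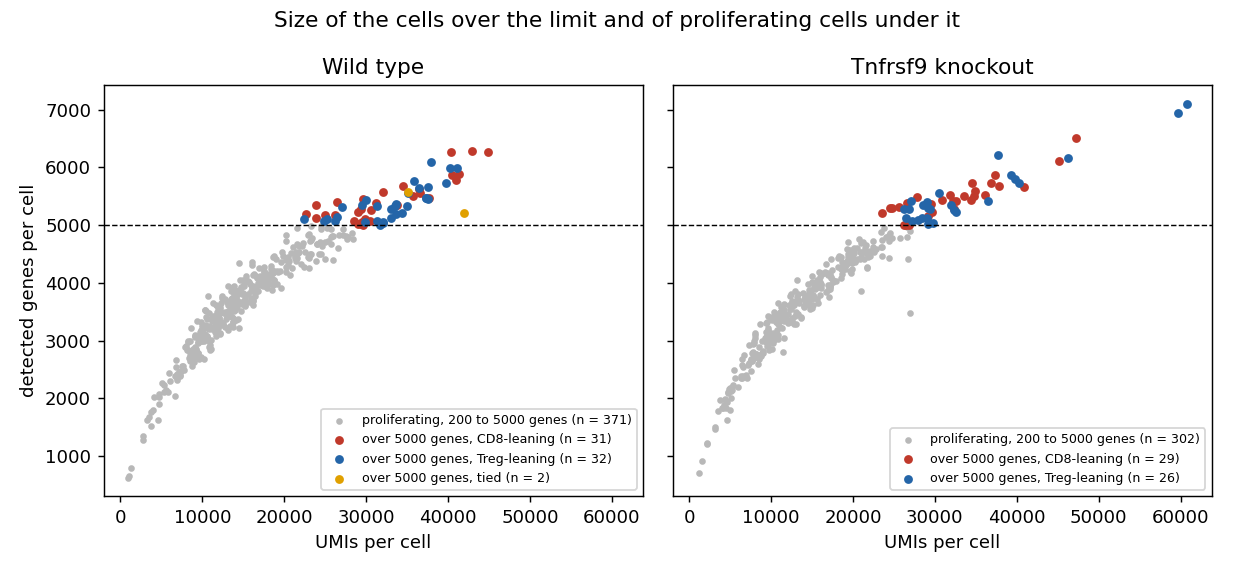
Detected genes (vertical axis) against total UMIs (horizontal axis) in single cells of each library, with proliferating cells of 200 to 5000 genes in grey and the cells over 5000 genes coloured by the lineage to which they lean. The 65 wild-type and 55 knockout cells above the dashed line at 5000 genes continue the grey cloud without a gap.

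Genes of cell types that the sort excluded were present in 12 of the members, which are described first. In all, 9 members of the wild-type library (13.8%, 6.53 to 24.7) and 3 of the knockout library (5.45%, 1.14 to 15.1) had at least 40 UMIs of the MHC class II genes Cd74, H2-Aa, H2-Ab1 and H2-Eb1, at least 10 of a B and plasma cell list or at least 30 of a myeloid list, limits that were set after the values were seen. Among the proliferating cells these were 3 of 371 (0.809%) and 3 of 302 (0.993%), and among proliferating cells with 4000 to 5000 genes, which are closest in depth, 3 of 117 (2.56%) and 2 of 101 (1.98%). MHC class II presents peptides to CD4 T cells and is made by B cells, dendritic cells and macrophages, and mouse T cells make little of it.

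Of these wild-type cells 4, with 40306, 26410, 23917 and 22717 UMIs, carried 16, 13, 19 and 22 UMIs of Siglech, a surface lectin known from plasmacytoid dendritic cells. In the same order they had 14, 27, 26 and 38 UMIs of Tcf4 and 25, 32, 27 and 30 of Irf8, transcription factors known from the same cells, and 29, 52, 44 and 58 of the signalling adaptor Tyrobp. Each of them also had T cell genes, with 55, 76, 30 and 41 UMIs of the CD3 chains Cd3d, Cd3e and Cd3g and 15, 40, 22 and 27 UMIs of Cd8a and Cd8b1. The knockout members together held 0 Siglech UMIs. A further wild-type cell of 41910 UMIs had 819 UMIs of Jchain, the joining chain of polymeric antibody, 337 of Mzb1 and 90 of Xbp1, both known from antibody-secreting cells, and 247 class II UMIs, with only 4 CD3 UMIs and none of Cd8a, Cd8b1, Cd4, Foxp3 or Il2ra. A knockout cell of 47236 UMIs had 587 UMIs of Jchain, 226 of Mzb1, 1440 of Slpi and 333 of class II, but here together with 46 CD3 and 28 Cd8a and Cd8b1 UMIs. The other 4 wild-type and 2 knockout cells passed the class II limit alone. They had 233, 115, 92 and 47 class II UMIs in the wild-type library and 53 and 139 in the knockout library, and all 6 had 18 or more CD3 UMIs. In the same order they held 7, 16, 6 and 7 and then 3 and 0 UMIs of Batf3, a transcription factor described below.

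Those cells held most of the class II signal of the whole set. They were chosen in part by at least 40 class II UMIs, so this share and the fall without them follow in part from that choice. It reached 698 CPM in wild-type and 403 CPM in knockout members, against 165 and 149 CPM in the proliferating cells, and 90.7% and 71.8% of the members' class II UMIs came from the 9 and 3 cells. Without them it was 75.7 and 121 CPM, against 72.4 and 74.9 CPM in proliferating cells treated alike. The lineages, as defined below, differed in this. CD8-leaning members were then at 87.5 and 210 CPM, against 37.1 and 64.5 CPM in CD8-leaning proliferating cells. Treg-leaning members were at 62.3 and 38.6 CPM, against 102.5 and 83.1 CPM. At a common depth of 10000 UMIs, 13 of 65 and 7 of 55 members still had at least 5 class II UMIs (20% and 12.7%), against 12 of 291 (4.12%) and 10 of 211 (4.74%) proliferating cells. Some genes of other cell types had no UMIs in the members, while others of the same lists did. Ms4a1 of B cells, Csf1r, Aif1, C1qa and C1qb of macrophages and Klrb1c of natural killer cells had 0 UMIs in both libraries, as did the erythroid list. The acinar list summed to 19 and 20 UMIs, the endocrine list to 10 and 12 and the endothelial and stromal list to 56 and 66, of which 49 and 64 were Pecam1. The B and plasma cell list summed to 1182 and 832 UMIs, of which 1170 and 823 came from 1 cell each. The myeloid list summed to 518 and 238 UMIs, of which 277 and 227 were Cst3 and 184 and 5 Tyrobp. Unthinned, at least 2 myeloid genes were found in 11 of 65 and 3 of 55 members (16.9% and 5.45%). In the proliferating cells these were 23 of 371 (6.20%) and 11 of 302 (3.64%). The natural killer list summed to 166 and 77, of which 157 and 70 were Eomes, a transcription factor that CD8 T cells also make. The part of these cells in the results below was not tested beyond the values given without them.

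**Figure D2:**
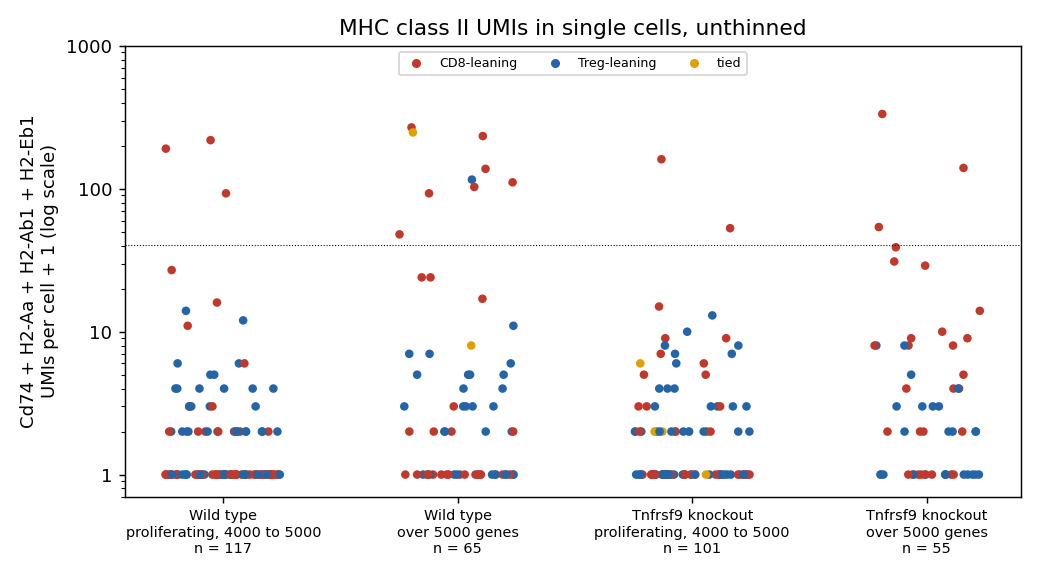
UMIs of Cd74, H2-Aa, H2-Ab1 and H2-Eb1 plus 1 per cell (vertical axis, log scale) in members and in proliferating cells with 4000 to 5000 genes, for each library, with a dotted line at 40 UMIs. A few members lie far above the line, up to 268 UMIs for wild type and 333 for knockout. Some of the proliferating cells also lie above it, up to 218 and 160 UMIs, while most of both sets sit near 0.

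Cells of both sorted lineages were present among the members. A cell was said to lean to CD8 when it had more UMIs of Cd8a and Cd8b1, the chains of the CD8 coreceptor, than of Cd4, Foxp3 and Il2ra together, and to lean to Tregs in the reverse case, so these genes chose the classes. In the wild-type library 31 members leaned to CD8, 32 to Tregs and 2 were tied, and in the knockout library 29 leaned to CD8, 26 to Tregs and 0 were tied. CD8-leaning cells were thus 47.7% (35.1 to 60.5) and 52.7% (38.8 to 66.3) of the members, against 52.3% (47.1 to 57.5) and 35.1% (29.7 to 40.8) of the proliferating cells. Read the other way, of all cells with at least 3 UMIs of the proliferation genes that leaned to CD8, 30 of 224 in the wild-type library (13.4%, 9.22 to 18.6) and 29 of 135 in the knockout one (21.5%, 14.9 to 29.4) had over 5000 genes. For cells leaning to Tregs these were 30 of 196 (15.3%, 10.6 to 21.1) and 25 of 202 (12.4%, 8.17 to 17.7). The intervals of the genotypes overlapped in both lineages, and neither difference was tested.

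The coreceptor marked the CD8-leaning members well. A CD8-leaning member had a median of 22 wild-type and 28 knockout UMIs of Cd8a and Cd8b1, with ranges of 4 to 75 and 7 to 100, and the CD8-leaning proliferating cells had 20 and 21.5. So the UMIs per cell were close to those of the smaller cells, while the share of all UMIs was lower. Cd8a stood at 509.9 [467 to 556] CPM in wild-type and 658 [607 to 713] CPM in knockout members, against 957 [921 to 994] and 1011 [962 to 1062] CPM in the proliferating cells. All 31 and all 29 of these members carried Cd8a, and Foxp3 was seen in 0 of 31 and 1 of 29. The same held for the T cell receptor complex, where all 3 CD3 chains were lower in share over all members. Cd3g, its gamma chain, was at 579.8 and 627 CPM, against 1182 and 1192 CPM in the proliferating cells.

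The Treg-leaning members were marked more thinly. They held a median of 6 and 7.5 UMIs over Cd4, Foxp3 and Il2ra, with ranges of 1 to 17 and 1 to 26, against 4 and 3 in proliferating cells of that lineage. Of the Treg-leaning members 29 of 32 wild-type and 24 of 26 knockout cells had Cd4 itself, at 105 [86.7 to 127] and 96.4 [77.0 to 119] CPM. Foxp3, the transcription factor that defines Tregs, gave 1 UMI in 1 of 32 wild-type members and 12 UMIs in 9 of 26 knockout members. These are levels of 0.95 [0.0241 to 5.29] and 13.6 [7.03 to 23.8] CPM, against 18.5 [13.5 to 24.7] and 20.8 [15.4 to 27.5] CPM in Treg-leaning proliferating cells, 23.5% and 24.3% of which carried it. The wild-type interval for members therefore ended below that for the proliferating cells, and the knockout intervals overlapped. At 10000 UMIs per cell Foxp3 was seen in 0 of 32 and 2 of 26 members, against 16.7% and 16.2% of the proliferating cells.

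Other Treg genes were present in most or all of these members, at a lower share. Ikzf2, which encodes the transcription factor Helios, was found in 32 of 32 and 26 of 26 of them, with medians of 22 and 32.5 UMIs per cell. It stood at 854 [799 to 912] and 1038 [971 to 1107] CPM, against 1356 [1311 to 1403] and 1705 [1652 to 1758] CPM in Treg-leaning proliferating cells. All 5 genes of the list of other Treg genes (Ikzf2, Ctla4, Icos, Tnfrsf18 and Tnfrsf4) were lower in both libraries. The inhibitory receptor Ctla4 went from 1072 and 1048 CPM in the proliferating cells to 618 and 476 CPM in the members. Ikzf2 was also found in 26 of 31 CD8-leaning wild-type members, with a median of 3 UMIs.

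**Figure D3:**
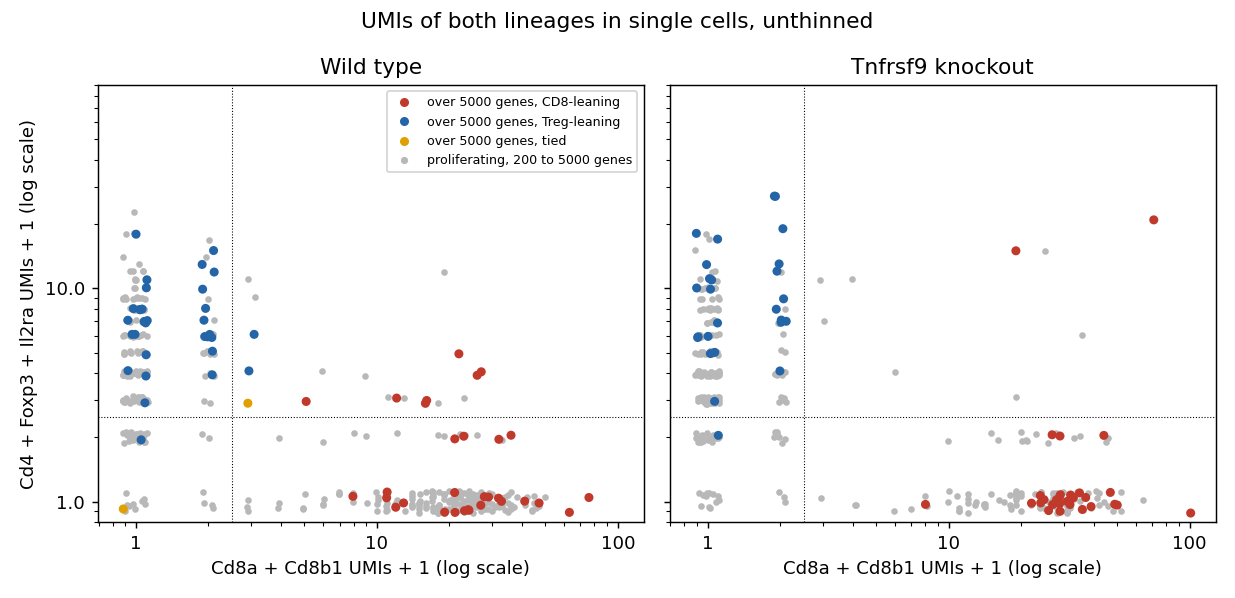
UMIs plus 1 of Cd4, Foxp3 and Il2ra (vertical axis, log scale) against UMIs plus 1 of Cd8a and Cd8b1 (horizontal axis, log scale) in single cells, not thinned, with points spread slightly sideways and up so that they can be told apart. Dotted lines bound the cells with at least 2 UMIs of both lineages, 10 of 65 wild-type and 2 of 55 knockout members, most of the wild-type ones just above the line.

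Signs of a CD8 T cell and a Treg in 1 droplet were sparse, and in the wild-type library their share depended on depth. At least 2 UMIs of each lineage were seen in 10 of 65 wild-type members (15.4%, 7.63 to 26.5) and 2 of 55 knockout members (3.64%, 0.443 to 12.5), against 9 of 371 (2.43%) and 7 of 302 (2.32%) proliferating cells. Among proliferating cells with 4000 to 5000 genes the shares were 6 of 117 (5.13%) and 3 of 101 (2.97%). Thinned to 10000 UMIs per cell, they were 1 of 65 members (1.54%, 0.0389 to 8.28) in the wild-type and 2 of 55 (3.64%) in the knockout library, against 5 of 291 (1.72%) and 4 of 211 (1.90%) proliferating cells. In the 10 wild-type cells the minor lineage had only 2 to 4 UMIs. The knockout library held a pair of members with more UMIs of both lineages, one of 34510 UMIs with 18 of CD8 and 14 of Treg genes, and one of 27845 UMIs with 70 and 20. Both leaned to CD8. All CD8-leaning knockout members together held 0 UMIs of Cd4, 1 of Foxp3 and 36 of Il2ra. The Treg-gene UMIs of this pair were therefore nearly all Il2ra, which was also found in 13 of 106 CD8-leaning proliferating knockout cells. Whether the pair held a Treg was not tested. A doublet of 2 cells of the same lineage leaves no such sign. A droplet of a CD8 T cell and a Treg can also be missed, most of all after thinning. Treg-leaning members held medians of only 6 and 7.5 UMIs of Cd4, Foxp3 and Il2ra before it, and Treg-leaning proliferating cells 4 and 3. No doublet caller was run and no doublets were removed, and how many of the members are doublets was not tested.

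Nearly all members were proliferating by the same limit as the comparison cells. At least 3 UMIs of Mki67, Top2a, Birc5, Ube2c and Cdk1 were present in 62 of 65 members (95.4%, 87.1 to 99.0) of the wild-type library and 54 of 55 (98.2%, 90.3 to 100) of the knockout library, and at least 10 in 61 and 54. At 10000 UMIs per cell 61 of 65 (93.8%) and 53 of 55 (96.4%) passed. Of all kept cells with at least that many UMIs, which include comparison cells, 273 of 457 (59.7%) and 195 of 358 (54.5%) did. The comparison cells were chosen by these genes and passed again at that depth in 93.8% and 92.4%. The levels did not set the members apart either. Mki67, the classical marker of cycling cells, was at 189 [171 to 208] and 349 [322 to 377] CPM, against 192 [180.2 to 204] and 339 [321 to 357] CPM, and Top2a, the topoisomerase that untangles chromosomes, at 472 and 764 CPM against 530.4 and 779.9 CPM. There were 4 members that did not pass. Of these 3 leaned to Tregs, with 26441 and 22465 UMIs for the wild-type cells and 26474 for the knockout cell. These held 64, 66 and 33 UMIs of Ikzf2 and 29, 57 and 29 of Ctla4, and 0 of Mki67. The other was the wild-type cell of 22717 UMIs with Siglech.

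To compare the rest of the transcriptome, a gene was called higher or lower where the log2 ratio of (CPM + 5) in members over proliferating cells passed 0.5 in the same direction in both libraries. Genes with at least 20 UMIs over both sets in each library were compared. Of 9583 such genes, 233 (2.43%) were higher and 419 (4.37%) lower in the members. The median gene was at -0.05 in both libraries, and with ratios taken from that median the split was 315 higher and 312 lower, so the excess of lower calls rests on the scaling. Against the proliferating cells with 4000 to 5000 genes alone, 74 of 8784 genes were higher and 101 lower. Without the cells with genes of other cell types 240 of 9507 were higher and 456 lower. In CD8-leaning cells 3.33% of 8047 genes were higher and 3.88% lower, and in Treg-leaning cells 2.67% of 8437 were higher and 7.19% lower.

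**Figure D4:**
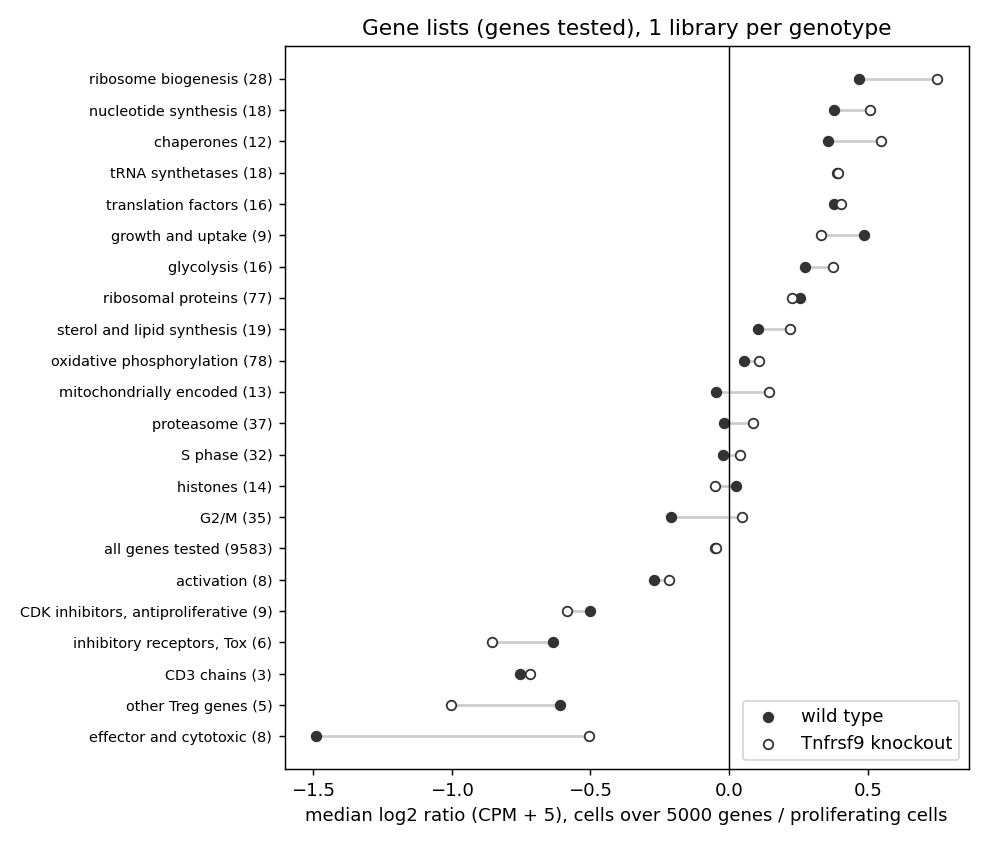
Median log2 ratio of (CPM + 5) in members over proliferating cells (horizontal axis) for each gene list (rows, with the number of genes compared in parentheses), wild type as filled and knockout as open symbols. Ribosome biogenesis lies furthest to the right in the knockout library at 0.75, the S phase list lies near 0, and the lists of growth-restraining and T cell effector genes lie to the left.

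Few cell cycle genes were called. Of 32 genes of DNA replication and S phase 0 were called, with medians of -0.02 and 0.04, and of 35 genes of G2 and mitosis 0 were called, with medians of -0.21 and 0.05. Of 14 histone genes 1 was lower, the variant H2afv. With both sets limited to cells with at least 10 UMIs of the proliferation genes, 6 of 35 genes of G2 and mitosis were lower, with medians of -0.56 and -0.35, 3 of 14 histone genes were lower, and 0 of 32 S phase genes were called. Thinned to 10000 UMIs, 18 of 65 wild-type members (27.7%, 17.3 to 40.2) and 16 of 55 knockout members (29.1%, 17.6 to 42.9) had more S phase than G2 and mitosis UMIs. In the proliferating cells these were 112 of 291 (38.5%, 32.9 to 44.3) and 78 of 211 (37.0%, 30.4 to 43.9), with overlapping intervals. Of 9 genes that restrain the cycle 4 were called lower and 0 higher, with list medians of -0.50 and -0.58. Against proliferating cells with 4000 to 5000 genes 2 were lower, with medians of -0.22 and -0.25. Btg1, an antiproliferative gene of resting lymphocytes, was at 241 [220.3 to 262] and 258 [235 to 282] CPM in members, against 584 [564 to 605] and 612 [589 to 637] CPM. Cdkn2c, which encodes the CDK4 and CDK6 inhibitor p18, was at 46.4 and 72.7 CPM against 117 and 116 CPM. The other calls were Cdkn1b and Cdkn2a, from fewer UMIs. The intervals of Cdkn1b, the p27 gene, at 9.38 [5.73 to 14.5] and 28.6 [21.4 to 37.6] CPM, ended below those of the proliferating cells at 19.0 [15.5 to 23.0] and 45.4 [39.2 to 52.4] CPM.

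Genes for making ribosomes were the group most often called higher. Of 28 ribosome biogenesis genes 13 were higher and 0 lower, where 2.43% of all genes were higher, and all 28 had a positive ratio in both libraries. The medians of the list were 0.47 and 0.75. Npm1, the nucleolar chaperone nucleophosmin, was at 1671 [1617 to 1727] and 2148 [2081 to 2216] CPM in members, against 1025 [999 to 1053] and 1112 [1080.0 to 1144] CPM in the proliferating cells. Ncl, which encodes nucleolin, was at 1008 [965 to 1051] and 1507 [1451 to 1564] CPM against 623 [602 to 645] and 797 [770.1 to 825] CPM. The intervals of members and proliferating cells did not overlap for either gene in either library. Mybbp1a, a nucleolar regulator of ribosomal RNA synthesis, stood at 74.1 and 90.3 CPM against 34.8 and 37.7 CPM, with log2 ratios of 0.99 and 1.16. Leaving out the cells with UMIs of both lineages gave 15 of 28 genes higher, and leaving out those with genes of other cell types also gave 15 of 28. The others called were Ddx21, Dkc1, Fbl, Gar1, Gnl3, Nhp2, Nolc1, Nop16, Rrs1 and Wdr43. In CD8-leaning cells 15 of 27 and in Treg-leaning cells 10 of 28 were higher, with medians of 0.56 and 0.80 in the former and 0.43 and 0.78 in the latter.

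Ribosomal proteins moved less and more evenly. Of 77 genes 0 were called, but 75 had a positive ratio in both libraries, with medians of 0.26 and 0.23. Together they took 30.9% and 28.6% of the members' UMIs, against 25.8% and 24.6% of those of the proliferating cells. Both measures were higher in bins of more detected genes among the proliferating cells with over 2000 genes, and did not first step up at 5000. From the smallest bin, up to 2000 genes, to the members, ribosomal proteins took 19.3%, 22.7%, 23.9%, 28.3% and 30.9% of wild-type UMIs and 18.0%, 21.4%, 22.9%, 26.8% and 28.6% of knockout UMIs. Over the bins above 2000 genes, biogenesis genes went from 0.237% to 0.533% in the wild-type and from 0.239% to 0.684% in the knockout library. The nuclear RNAs Malat1 and Neat1 went the other way, from 1.14% to 0.597% and from 1.47% to 0.557%. Against the proliferating cells with 4000 to 5000 genes the biogenesis medians were 0.17 and 0.56, with 25 of 28 genes positive in both libraries but only 1 called, and the ribosomal medians 0.12 and 0.08.

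**Figure D5:**
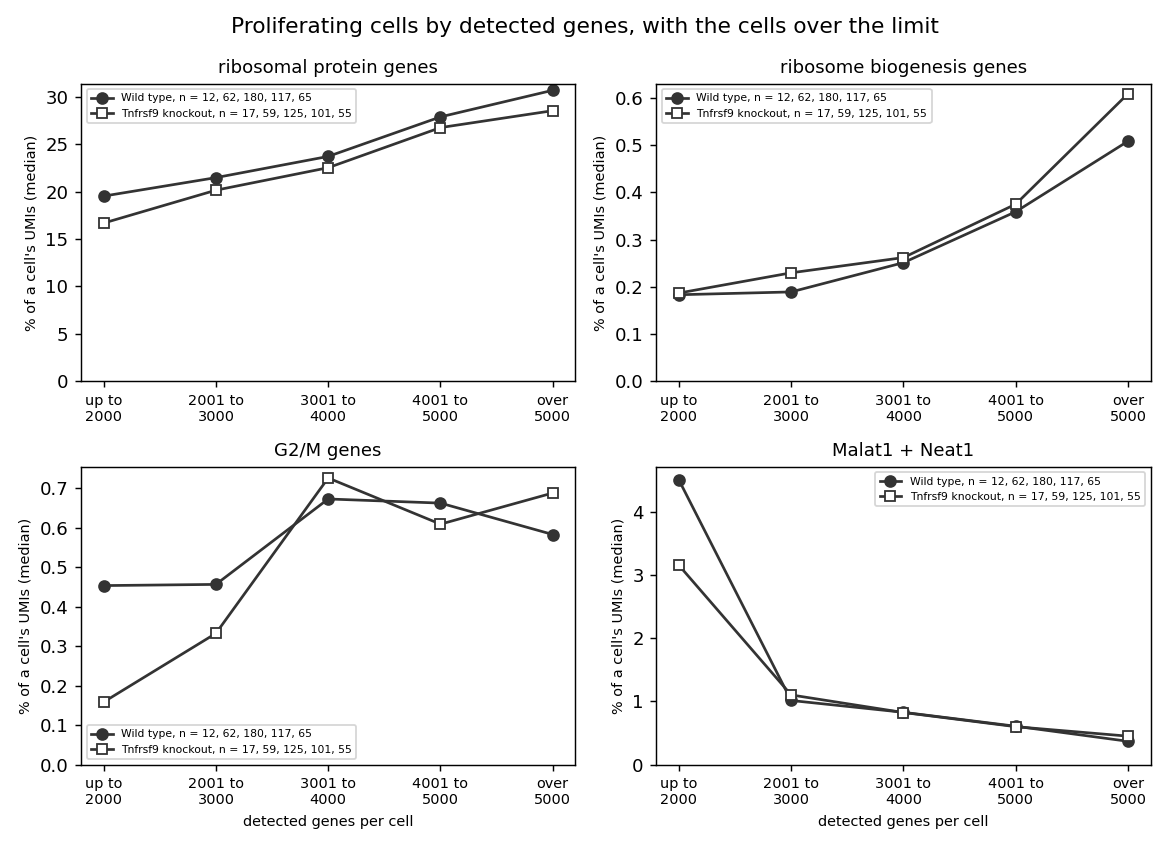
Median percentage of a cell's UMIs (vertical axis) taken by ribosomal proteins, ribosome biogenesis genes, genes of G2 and mitosis, and Malat1 with Neat1, in proliferating cells grouped by detected genes (horizontal axis) and in the members as the last group, for each library. Ribosome biogenesis reached 0.508% in wild-type and 0.608% in knockout members, against 0.359% and 0.375% in cells of 4000 to 5000 genes.

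Single cells of both sets varied in this measure. In the proliferating cells ribosome biogenesis took between 0% and 1.75% of a cell's UMIs in the wild-type library and between 0.0500% and 1.72% in the knockout library. Ribosome biogenesis took between 0.140% and 1.10% of the UMIs of a wild-type member and between 0.178% and 1.49% of those of a knockout member. The lowest wild-type value belonged to a Treg-leaning cell with 2 UMIs of the proliferation genes, which had 64 UMIs of Ikzf2 and 20 of Tnfrsf9 but 4 of Ncl and 0 of Srm. A wild-type Treg-leaning cell with 1 UMI of the proliferation genes had 30 Ncl UMIs and 0.499%.

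Genes of the growth programme that feeds protein and nucleotide synthesis were higher in part. Srm, the spermidine synthase of the polyamine pathway, had the largest ratio of the list genes over all members when the lower of the libraries is taken, with 121 [107 to 137] and 105 [90.8 to 121] CPM against 41.3 [36.1 to 47.1] and 36.5 [30.9 to 42.8] CPM, which are log2 ratios of 1.44 and 1.41. It was found in 28 of 31 and 20 of 29 CD8-leaning members and in 24 of 32 and 20 of 26 Treg-leaning members, so it was no feature of a few cells. Slc7a5, the light chain of the large neutral amino acid transporter, was at 33.8 and 35.2 CPM against 16.2 and 15.2 CPM, and Tfrc, the transferrin receptor, was also higher. Slc3a2, the heavy chain that pairs with Slc7a5, was lower, at 109.8 and 102 CPM against 159 and 158 CPM. Myc, the transcription factor known for driving this programme, was not called, at 30.02 [23.1 to 38.3] and 27.0 [19.97 to 35.7] CPM against 24.8 [20.7 to 29.3] and 23.7 [19.2 to 28.9] CPM, with overlapping intervals.

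Of 18 genes of nucleotide and one-carbon synthesis 5 were higher (Cad, Nme1, Pfas, Shmt1 and Shmt2), and all 18 had positive ratios in both libraries, with medians of 0.38 and 0.51. Cad, the enzyme that starts pyrimidine synthesis, was at 27.7 [21.1 to 35.7] and 21.5 [15.3 to 29.4] CPM against 14.1 [11.1 to 17.7] and 7.73 [5.29 to 10.9] CPM. Shmt2, the mitochondrial enzyme that draws one-carbon units from serine, was at 75.5 and 71.6 CPM against 45.0 and 29.7 CPM. Of 16 translation factors 3 were higher (Eef1g, Eif4ebp1 and Eif5a), as were 3 of 18 tRNA synthetases (Iars, Tars and Vars). Eif5a, the elongation factor whose modified form is made from spermidine, was at 1406 and 1539.7 CPM against 924 and 856 CPM.

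Among chaperones 4 of 12 were higher and all 12 positive in both libraries, with medians of 0.36 and 0.55. Hspd1 and Hspe1, the paired chaperonins of the mitochondrial matrix, led this group. Hspd1 was at 457 [429 to 487] and 604 [569 to 641] CPM against 215 [203 to 228] and 222 [208 to 237] CPM, with log2 ratios of 1.07 and 1.43, and was found in all CD8-leaning members of both libraries. The cytosolic chaperones Hsp90aa1 and Hsp90ab1 were also higher, the latter at 2413 and 2594 CPM against 1572 and 1526 CPM, while Hspa8, at 1821 and 1962 CPM against 1810 and 1850 CPM, was not. Of 16 glycolysis genes 3 were higher (Hk2, Pgam1 and Tpi1), with Hk2, the inducible hexokinase, at 25.3 and 28.1 CPM against 10.98 and 11.6 CPM. Of 19 genes of sterol and fatty acid synthesis 2 were higher, Fasn and Scd2. Respiratory chain genes were near the median gene, with 1 of 78 nuclear-encoded genes called and medians of 0.05 and 0.11, and 0 of 13 mitochondrially encoded genes and 0 of 37 proteasome genes were called.

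Against the proliferating cells with 4000 to 5000 genes, where 74 of all 8784 genes compared were higher, fewer of these genes were higher. None of the 18 nucleotide synthesis genes was called, with medians of 0.19 and 0.26. The calls were 1 of 12 chaperones, with medians of 0.23 and 0.37, 1 of 9 growth and uptake genes, 1 of 16 translation factors, 2 of 18 tRNA synthetases, 1 of 16 glycolysis genes and 1 of 19 sterol and fatty acid genes. The list medians of these groups were positive in both libraries.

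Hspd1 and Mybbp1a, each among the 10 leading genes of CD8-leaning members, each have a start region, as given by RefSeq for GRCm38.p6, that holds the E-box CACGTG, the hexamer known to bind Myc with its partner Max. The windows run from 250 bases before to 50 after an annotated start, are read along the gene, and have the hexamer in capitals. They were chosen for holding it, and a second window of Hspd1 and the windows of Ncl and Nop56 did not.
Hspd1, chr1:55088194-55088493, minus strand: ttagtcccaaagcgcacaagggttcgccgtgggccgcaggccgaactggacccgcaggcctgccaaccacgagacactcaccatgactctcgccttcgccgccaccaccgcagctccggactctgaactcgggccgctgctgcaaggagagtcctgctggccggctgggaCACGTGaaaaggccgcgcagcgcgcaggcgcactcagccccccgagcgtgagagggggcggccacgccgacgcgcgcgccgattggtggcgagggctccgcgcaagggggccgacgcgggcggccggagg
Mybbp1a, chr11:72441077-72441376, plus strand: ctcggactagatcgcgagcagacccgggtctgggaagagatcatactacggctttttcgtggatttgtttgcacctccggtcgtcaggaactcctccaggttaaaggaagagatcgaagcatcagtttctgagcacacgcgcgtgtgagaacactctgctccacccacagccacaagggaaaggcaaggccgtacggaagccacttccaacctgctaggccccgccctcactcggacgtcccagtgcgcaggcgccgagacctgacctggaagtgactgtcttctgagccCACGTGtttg
CACGTG reads the same on both strands. It was found in the windows of 8.09% of 27025 genes, and in those of 6 of 24 ribosome biogenesis genes (25%), 4 of 16 nucleotide synthesis genes (25%), 3 of 10 tRNA synthetases (30%), 1 of 8 chaperones (12.5%), 1 of 5 growth and uptake genes (20%), 6 of 57 ribosomal proteins (10.5%), 2 of 26 S phase genes (7.69%) and 2 of 30 genes of G2 and mitosis (6.67%), counted over the list genes with a window. The windows were not matched for base composition, and a match is not evidence of binding.

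Effector genes of CD8 T cells took a smaller share of UMIs in the members. Of 8 cytotoxicity genes compared in CD8-leaning cells 7 were lower, where 3.88% of all genes were, with medians of -1.38 and -0.92. Ccl5, the chemokine made by effector and memory CD8 T cells, was at 2703 [2603 to 2807] and 1128 [1061 to 1199] CPM against 7054 [6955 to 7153] and 3943 [3846 to 4043] CPM. Gzmb, which encodes granzyme B, was at 69.9 [54.5 to 88.3] and 135 [112 to 161] CPM against 189.8 [174 to 207] and 309.8 [283 to 339] CPM. Nkg7, Gzma, Ifng, Cxcr6 and Fasl were lower as well, and Gzmk was not called. Both libraries gave the same direction, although the levels of Ccl5, Gzmb and Gzma differed between them. The wild-type members held 3.99 CPM of Gzma, which is 4 UMIs from 1 cell. Over both lineages and against proliferating cells with 4000 to 5000 genes, the list medians were -0.54 and -0.33.

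Of 6 genes of chronic stimulation and exhaustion, 3 were lower in CD8-leaning members (Entpd1, Lag3 and Tigit). Lag3, an inhibitory receptor that binds MHC class II, was at 139 [117 to 164] and 124 [103 to 149] CPM against 278 [258 to 298] and 283 [257 to 311] CPM. Pdcd1, the gene of the receptor PD-1, was at 144 and 174 CPM against 242 and 239 CPM and missed the limit in the knockout library. Of 8 activation genes 0 were called. The lowest ratios of CD8-leaning members among genes with at least 50 UMIs belonged to S100a6, S100a4, Cxcr6, Ccl3, Ccl4, Ccl5, Rgs1, Klra1, Xaf1 and Irf9. S100a6, a calcium-binding protein of antigen-experienced T cells, was at 378 [341 to 418] and 359.7 [322 to 400.3] CPM against 1356 [1313 to 1400.4] and 1214 [1160.4 to 1270.1] CPM. The chemokine Ccl4 was at 389 and 385 CPM against 1113 and 1451 CPM.

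The highest ratios of CD8-leaning members belonged to H2-Eb1, H2-Aa, H2-Ab1, Myo1h, Batf3, Srm, Marcksl1, Mybbp1a, Hspd1 and Cd74. The 4 class II genes were carried in large part by the cells named above, which were chosen in part by these genes. H2-Eb1 was at 148 and 121 CPM against 22.7 and 15.9 CPM, and its 3 highest members held 61.5% and 90.3% of its UMIs. Without the cells with genes of other cell types the log2 ratios of the 4 genes still lay between 0.63 and 1.95. Batf3, a transcription factor of the AP-1 family known from dendritic cells and from CD8 T cells that form memory, was found in 11 of 31 and 13 of 29 of these members, at 54.9 [41.3 to 71.4] and 40.7 [28.8 to 55.8] CPM against 6.12 [3.57 to 9.80] and 8.29 [4.41 to 14.2] CPM. Its log2 ratios of 2.43 and 1.78 were 2.15 and 1.72 without those cells. Myo1h, a class I myosin, was found in 10 of 31 and 8 of 29, with 72.3% and 76.7% of its UMIs in 3 cells. Marcksl1, a membrane protein that binds actin, was spread over 23 of 31 and 23 of 29.

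In Treg-leaning members the highest ratios belonged to Hlf, Rangrf, Bcat1, Penk, Srm, Hspd1, Ppp1r14b, Tars, Prmt5 and Lap3. Bcat1, the cytosolic branched-chain aminotransferase, was at 63.6 [49.3 to 80.8] and 63.5 [48.0 to 82.5] CPM against 26.1 [20.2 to 33.3] and 22.0 [16.5 to 28.9] CPM and was found in 25 of 32 and 22 of 26 members. Hlf, a PAR bZIP transcription factor known from blood stem cells, was at 96.9 [79.0 to 118] and 48.8 [35.3 to 65.7] CPM against 1.21 [0.249 to 3.52] and 2.97 [1.19 to 6.12] CPM. It was found in 8 of 32 and 7 of 26 of these members, and 3 cells held 87.3% and 76.7% of its UMIs. The members with at least 5 UMIs of Hlf were 4 Treg-leaning and 2 CD8-leaning cells in the wild-type library and 2 and 1 in the knockout library, with up to 52 UMIs in 1 cell, and all 9 had at least 10 UMIs of the proliferation genes. In the wild-type library 2 of them were among the cells with genes of other cell types. Penk, the proenkephalin gene, was found in 7 of 32 and 6 of 26, and 3 cells held 89.4% and 95.5% of its UMIs.

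The lowest ratios of Treg-leaning members were those of Il10, the gene of the inhibitory cytokine interleukin 10, with 5.70 [2.09 to 12.4] and 6.80 [2.497 to 14.8] CPM against 47.4 [39.3 to 56.8] and 80.1 [69.1 to 92.4] CPM. Itgae, which encodes the integrin CD103 of tissue T cells, was at 36.1 [25.5 to 49.5] and 15.9 [8.68 to 26.6] CPM against 157 [142 to 173] and 106 [93.7 to 120.4] CPM. The 10 genes with the lowest ratios also included the chemokine receptors Ccr2 and Cxcr6, the growth factor Areg, and Pyhin1, Lag3, S100a4 and Gzmb. Ccr2 was at 27.5 and 35.2 CPM against 112 and 125 CPM, and Lag3 at 112 and 115 CPM against 451 and 384 CPM. Of 6 exhaustion genes 3 were lower in Treg-leaning members (Entpd1, Havcr2 and Lag3), and of 9 genes that restrain the cycle 5 were.

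The last comparison set the knockout members against the wild-type members, which asks whether the largest cells differ with CD137. With 1 library each, genotype and library cannot be told apart. Among CD8-leaning members 12.3% of 7600 genes were past the limit as higher in the knockout library and 7.88% as lower, and among Treg-leaning members 12.6% and 6.92% of 7467 genes, so that a single gene past the limit is common. The median gene was at 0.05 in both lineages. Tnfrsf9 was at 48.2 [35.1 to 64.5] CPM in knockout and 103 [83.9 to 125] CPM in wild-type CD8-leaning members, and at 63.5 [48.0 to 82.5] and 159 [135 to 185] CPM in Treg-leaning members. The log2 ratios of -1.02 and -1.26 lay beside -1.19 and -1.36 in the proliferating cells.

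Among CD8-leaning members cytotoxicity genes differed in both directions. Gzma, which encodes granzyme A, was at 277 CPM in knockout members, from 10 of 29 cells of which 3 held 63.3% of the UMIs, and at 3.99 CPM in wild-type members. Ifng, found in 22 of 29 knockout and 12 of 31 wild-type members, was at 107 and 25.9 CPM in them and Gzmb at 135 and 69.9 CPM, while Ccl5 was lower in knockout members, at 1128 against 2703 CPM. The linker histone genes Hist1h1b and Hist1h1e were at 380.0 and 314 CPM in knockout members against 79.8 and 43.9 CPM in wild-type members. The same difference was present in the CD8-leaning proliferating cells, at 272 and 227 CPM against 58.0 and 50.8 CPM. Mki67 was at 320.1 against 205 CPM in members and 311 against 189 CPM in proliferating cells. Ribosome biogenesis had 6 of 27 genes higher in the knockout members, where 12.3% of all genes were, with a list median of 0.27.

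Among Treg-leaning members 14 of 35 genes of G2 and mitosis were higher in the knockout library, where 12.6% of all genes were, and the list median was 0.35, where it was -0.02 in the proliferating cells. Cenpf, a kinetochore protein of that list, was at 181 against 95.0 CPM. Mki67, which is not in that list, was at 379 against 173 CPM. It was also higher in the knockout library over all proliferating cells, as given above, so this difference was not particular to the members. Of 32 S phase genes 1 was higher and 3 lower, where 12.6% and 6.92% of all genes were, so the list did not stand out as lower. The lower ones included cyclin E1 (Ccne1) at 29.5 against 76.9 CPM and the uracil glycosylase gene Ung at 37.4 against 82.6 CPM. Ribosome biogenesis had 10 of 28 genes higher in the knockout members, with a median of 0.34 against -0.02 in the proliferating cells. Nr4a1, a gene switched on by T cell receptor signals, was at 23.8 against 76.0 CPM, a log2 ratio of -1.49 beside -0.17 in the proliferating cells, and in the wild-type library 3 cells held 55.0% of its UMIs. None of these differences between the sets was tested.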

How the data were processed

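RNA of sorted islet CD8 T cells and Tregs was measured in 2 droplet libraries, 1 per genotype. The authors deposited counts of UMIs per gene and barcode, made with Cell Ranger 7.0.0 and, per the submitters' processing notes, the mm10 build. Barcodes outside the study's limits were still present. UMIs were summed over the cells of a set in Python 3.11.15 (numpy 2.4.6, scipy 1.17.1, pandas 2.3.3) and divided by the set's total, with 5 CPM added before ratios, and the steps were checked on simulated data. Cells were thinned to 10000 UMIs for shares, which left out no member but 80 of 371 wild-type and 91 of 302 knockout proliferating cells. Figures were drawn with matplotlib 3.10.9. The named genes are those of fixed lists and the 10 highest and 10 lowest ratios per lineage among genes with at least 50 UMIs. The members and lists were chosen with earlier results of these data known. Trac, Trbc1, Trbc2, Cct6a and Mars1 were not analysed here. The T cell receptor libraries and the libraries of other mice in the study were not used here. The alternatives tried are given under the dependence on processing. Results for a few genes are not reported here.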

Additional observations from a re-analysis of the deposited data

Results flagged for a closer look

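For 7 genes of naive and recirculating T cells (among them Ccr7, Lef1, Tcf7, S1pr1, Il7r and Ltb), the median log2 ratio of members over proliferating cells was 0.13 for wild type and -0.61 for knockout, a difference of -0.74. Cell cycle, histone, mitochondrially encoded and proteasome lists also had medians of opposite sign in the libraries, all between -0.30 and 0.14. For the naive list in CD8-leaning cells the medians were 0.49 and -0.60, a difference of -1.09. The difference was not tested, since each genotype has 1 library. In CD8-leaning cells Ccr7, the chemokine receptor for lymph node entry, was at 24.9 CPM in members and 10.8 CPM in proliferating cells of the wild-type library, and at 13.9 and 20.4 CPM in those of the knockout library. Few cells carried these UMIs: Ccr7 was found in 12 of 31 wild-type members, 3 of which held 48.0% of its UMIs. Ltb, the most abundant of the list, was lower in members of both libraries, at 252 and 288 CPM against 405 and 532 CPM.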

How the results depend on the processing

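No paired analysis was possible because each genotype has 1 library. The limit on genes set the number of members, which was 111 and 97 at 4500 genes and 19 and 20 at 5500. The share of wild-type members with both lineages was 12.3% with at least 1 UMI of each at 10000 UMIs per cell, 0% with at least 3, 0% at 5000 UMIs per cell and 15.4% without thinning. With at least 1 UMI it was 8.25% of wild-type and 11.4% of knockout proliferating cells, and at 5000 UMIs it was 0% of wild-type proliferating cells. At 5000 UMIs 81.5% of wild-type members were proliferating. Genes higher and lower numbered 366 and 664 with 1 CPM added, 100 and 163 with 20 CPM added, and 74 and 101 against cells of 4000 to 5000 genes. Taken from the median gene they were 315 and 312. Over all members together, 398 genes were lower in the knockout library. One called gene reversed: Cd74 in Treg-leaning cells only, at a mean ratio of -0.38 (0.26 for wild type and -1.02 for knockout). Among lists with a called gene, the medians of the histone, respiratory chain and naive lists changed sign in a library under at least 1 alternative. A count of cells with both T cell receptor beta constant genes was planned and not run. Counting depth and 1 library per genotype limit every value.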
